A study of Mus musculus and Mus musculus
Rattus norvegicus with 30 samples.

Results

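RMES cells are mouse-rat allodiploid embryonic stem cells, made by fusing a haploid mouse with a haploid rat embryonic stem cell, so that each cell carries a haploid genome of each species. The state of these cells before any Cdx2 transgene was set against that of mouse embryonic stem cells (mESC) by comparing the mouse-gene counts of the 2 RNA-seq libraries labelled WT RMES with those of the 2 libraries labelled WT mESC, which are 4 of the 30 samples of the series. Both lines carry the genotype label WT, neither label names a transgene or an inducer, and per the study's methods both grew in the same serum-free medium with a MEK inhibitor, a GSK3 inhibitor and LIF. The methods name RMES as 1 cell line, the sex of neither line is given in the sources used here, and nothing says that the 2 libraries of a line came from separate cultures, so p-values measure only the spread between these libraries. Cell line and read processing cannot be told apart, since RMES reads were first assigned to the mouse or the rat genome by edit distance and mESC reads were not.

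In this culture the MEK inhibitor blocks the FGF-ERK signal that drives exit from pluripotency, the GSK3 inhibitor stabilises beta-catenin and so mimics a WNT signal, and LIF acts through STAT3. Such cells hold a naive pluripotent state with low DNA methylation. Cdx1, Cdx2 and Cdx4 are caudal-type homeobox factors: in the embryo Cdx2 specifies the trophectoderm, and all 3 later act in the posterior primitive streak, where they activate Hox genes, which give cells their position along the body axis.

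Of the 19890 mouse genes compared, 16903 had enough counts to be tested. A gene was called when its edgeR quasi-likelihood adjusted p was under 0.05 and its fold change over 2. The libraries labelled WT RMES had 2306 genes called higher, 13.6% of those tested, and 3319 called lower, 19.6%. At any fold change the numbers were 6338 and 6621. Mouse-gene totals were 36730590 and 40312821 counts in the WT RMES libraries, and 73666443 and 93141006 in the WT mESC libraries. Of the genes called lower, 142 had no count in either RMES library and 321 had 1 to 3 counts in all, so that their fitted fold changes are poorly fixed. Of the genes called higher, 2 had no count and 18 had 1 to 3 counts in the mESC libraries.

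**Figure D1:**
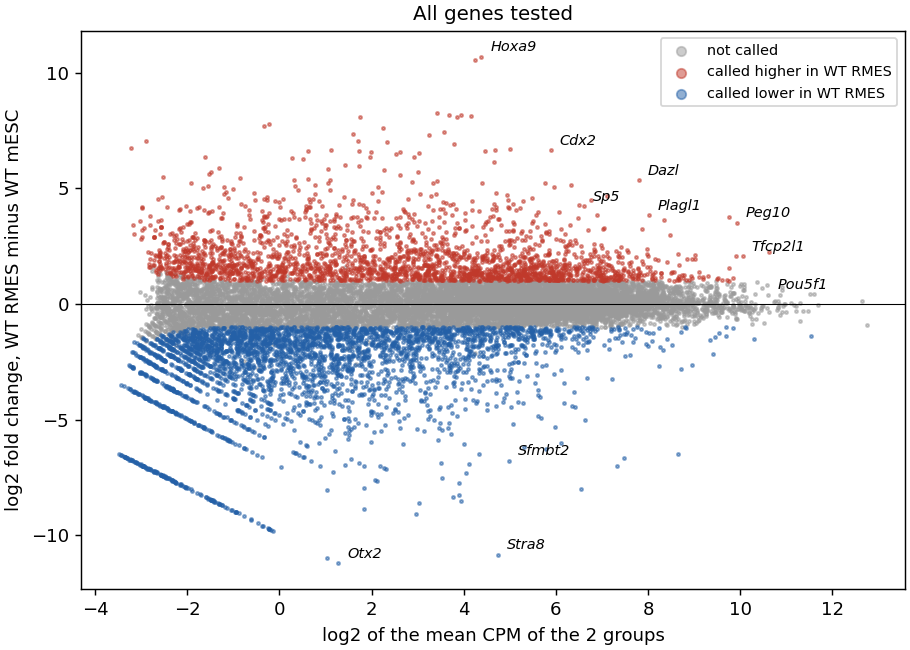
Each point is 1 of the 16903 mouse genes tested, with the log2 of its mean CPM (counts scaled to 1000000 per library) over both groups on the x axis and its log2 fold change (WT RMES minus WT mESC) on the y axis. The 2306 genes called higher are red, the 3319 called lower are blue, and the diagonal lines at the lower left are genes with 0 or few counts in the RMES libraries.

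The gene the study set out to vary was checked first. Mouse Cdx2 (chr5:147300805-147307270, minus strand, GRCm38) had 4187 and 4541 counts in the libraries labelled WT RMES and 96 and 106 counts in those labelled WT mESC. These are 117 CPM against 1.18 CPM on average (edgeR log2 fold change 6.64 ± 0.06 SE, adjusted p = 1.4e-10). The rat gene of the same symbol had 12384 and 13178 counts in the same RMES libraries, or 420 and 409 CPM of rat counts. On a scale shared by all 24 libraries with mouse counts, mouse Cdx2 lay between 128 and 131 CPM in the libraries labelled WT RMES, between 39 and 154 CPM in the 18 mESC libraries that overexpress a Cdx2 construct, at 963 CPM in the single mCDX2 OE RMES library and at 4.43 CPM in the single rCDX2 OE RMES library. The libraries labelled WT RMES held Cdx2 counts of both species, at a mouse level within the 102 to 132 CPM of the mCDX2 OE mESC libraries. The other overexpressing mESC libraries carry rat Cdx2 or mutants of it, whose reads count here only where they align to mm10. In RMES such reads could go to the rat genome instead, so those levels are not a like measure. Every direction given here is that of the libraries so labelled.

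The promoter windows of 4 genes are shown, those of the Cdx gene, the 2 Hox genes and the germline gene with the largest increases. They are set beside the WT mESC library of accessible chromatin (ATAC-seq). Whether DNA methylation acts on these promoters was not tested. Each runs from 250 bases before to 50 bases after a RefSeq start (GRCm38.p6, minus strand), with CG dinucleotides, the sites of DNA methylation, in capitals.
Cdx2, chr5:147307200-147307499: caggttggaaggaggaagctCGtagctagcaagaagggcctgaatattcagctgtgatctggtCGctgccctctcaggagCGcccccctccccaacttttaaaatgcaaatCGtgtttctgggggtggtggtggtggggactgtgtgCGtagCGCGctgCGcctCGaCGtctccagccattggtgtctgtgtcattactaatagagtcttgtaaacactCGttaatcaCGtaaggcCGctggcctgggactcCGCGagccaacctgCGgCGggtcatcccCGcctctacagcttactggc
Hoxa9, chr6:52227321-52227620: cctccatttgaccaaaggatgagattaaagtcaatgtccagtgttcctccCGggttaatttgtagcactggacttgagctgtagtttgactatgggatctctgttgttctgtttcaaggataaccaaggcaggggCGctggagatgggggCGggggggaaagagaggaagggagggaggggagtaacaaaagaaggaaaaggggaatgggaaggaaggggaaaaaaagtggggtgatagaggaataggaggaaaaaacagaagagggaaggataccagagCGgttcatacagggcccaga
Hoxa10, chr6:52240805-52241104: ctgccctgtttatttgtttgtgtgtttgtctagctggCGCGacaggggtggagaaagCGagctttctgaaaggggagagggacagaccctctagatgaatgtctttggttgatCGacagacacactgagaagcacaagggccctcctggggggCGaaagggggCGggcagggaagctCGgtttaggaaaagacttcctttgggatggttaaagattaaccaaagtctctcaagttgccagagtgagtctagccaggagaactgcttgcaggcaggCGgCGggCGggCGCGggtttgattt
Dazl, chr17:50293571-50293870: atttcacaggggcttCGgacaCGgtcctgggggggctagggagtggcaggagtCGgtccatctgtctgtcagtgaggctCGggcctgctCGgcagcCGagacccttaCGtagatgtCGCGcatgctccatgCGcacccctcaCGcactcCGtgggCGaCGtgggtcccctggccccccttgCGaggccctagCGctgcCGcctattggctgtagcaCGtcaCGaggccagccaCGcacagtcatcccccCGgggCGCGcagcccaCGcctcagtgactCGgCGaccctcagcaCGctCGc
The windows hold 18, 4, 12 and 28 CG dinucleotides, respectively, and 99.3% of the 11952 windows of tested genes hold at least 1. The ratio of observed to expected CG was 0.731 for Cdx2, 0.28 for Hoxa9, 0.596 for Hoxa10 and 0.795 for Dazl, beside a median of 0.741 over all windows. Peaks within 1000 bp of these starts held 65, 56, 66 and 91 ATAC counts in the WT mESC library, where the median gene had 126. The letters TTTAT or ATAAA, the core of the caudal homeobox motif on either strand, occurred in the Hoxa10 window and in none of the other windows shown, and in 25.5% of all windows.

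The other Cdx genes were higher too. Cdx1 had 10735 and 10691 counts in the WT RMES libraries against 4203 and 4968 (2.44 ± 0.06 SE on the log2 scale, adjusted p = 3.6e-09). Cdx4 was at 3.48 and 3.07 CPM against 0.104 and 0.136 CPM (4.73 ± 0.27 SE, adjusted p = 6.5e-07). All 3 Cdx genes were called higher, as were 13.6% of all genes tested.

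Of the 27 gene lists, the Hox genes had the highest median. Of the 39 Hox genes listed, 32 were tested. The test called 29 of them higher and 1 lower, beside 13.6% and 19.6% of all genes tested. Their median was 4.02 on the log2 scale, where the median of all genes tested was -0.03. Hoxa9 had 1424 and 1675 counts in the WT RMES libraries and 2 and 2 in the WT mESC libraries (10.69 ± 0.13 SE, adjusted p = 2.6e-10). For Hoxa10 the counts were 794 and 805 against 7 and 5 (8.23 ± 0.16 SE, adjusted p = 1.8e-09). Both are posterior members of cluster A and were near 0 in the mESC libraries, so their fold changes are less well fixed than the SE implies. Hoxa7 had 2151 and 2620 counts against 49 and 57 (6.70 ± 0.08 SE, adjusted p = 2.7e-10). Hoxb8 had 340 and 363 against 5 and 3, and Hoxc10 had 279 and 291 against 9 and 7. By cluster, 10 of 11 tested Hoxa genes were called higher, 7 of 8 Hoxb genes (10 listed), 9 of 9 Hoxc genes and 3 of 4 Hoxd genes (9 listed). Members near 0 in the mESC libraries passed the count filter only through the RMES libraries, where they were high. The shares of tested members therefore carry little weight. With all genes of at least 1 count kept, 29 of 39 Hox genes were called higher, beside 2381 of all 19851 genes. The summed level of the tested Hox genes was 242 and 245 CPM in the RMES libraries and 12.4 and 13.1 CPM in the mESC libraries. The exception was Hoxb13, with 7 and 12 counts against 61 and 102 (-1.86 ± 0.35 SE, adjusted p = 0.00138), the most posterior Hoxb gene. Hoxa4 and Hoxd13 were not called, and Hoxd13 changed its sign between settings.

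The rat alleles of these genes did not all stand at like levels. Rat Hoxa7 was at 0.611 and 0.217 CPM in the same libraries in which mouse Hoxa7 averaged 64 CPM, whereas rat Hoxb9 stood at 18.6 and 18.3 CPM beside 22 CPM for the mouse gene. Rat Hoxc10 was at 0.509 and 0.311 CPM beside 7.68 CPM. Hoxa9 and Hoxa10 had no rat gene of the same symbol. Levels of the rat and mouse genes are each scaled to the counts of their own genome, and the assignment of reads enters both.

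Across the other libraries of the series, Hoxa9 lay between 10.6 and 24.5 CPM in the 18 Cdx2-overexpressing mESC libraries and between 3.25 and 3.93 CPM in the 2 Cdx2-overexpressing RMES libraries, beside 44.6 to 47.4 CPM in the libraries labelled WT RMES on the same scale. Hoxa7 followed the same order, with 9.36 to 29.6 CPM, 3.57 to 5.69 CPM and 67.4 to 74.1 CPM. Of the 36 Hox genes followed across the series, 14 lay above every overexpressing library in the libraries labelled WT RMES, Hoxa9 and Hoxa7 among them. Another 2 lay below every one (Hoxd4 and Hoxd10) and 20 overlapped. Hoxd10 was near the floor, with at most 2 counts in the libraries labelled WT RMES and 3 in the rCDX2 OE RMES library. Against the overexpressing RMES libraries alone, 19 lay above and 11 below. Overlap was not counted over all genes, so these numbers do not set the Hox genes apart. Hoxd4 was at 0.282 to 0.396 CPM in the libraries labelled WT RMES and 11.5 to 17.5 CPM in the overexpressing RMES libraries, and Hoxd8 at 1.44 to 1.72 CPM and 7.31 to 9.09 CPM.

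**Figure D2:**
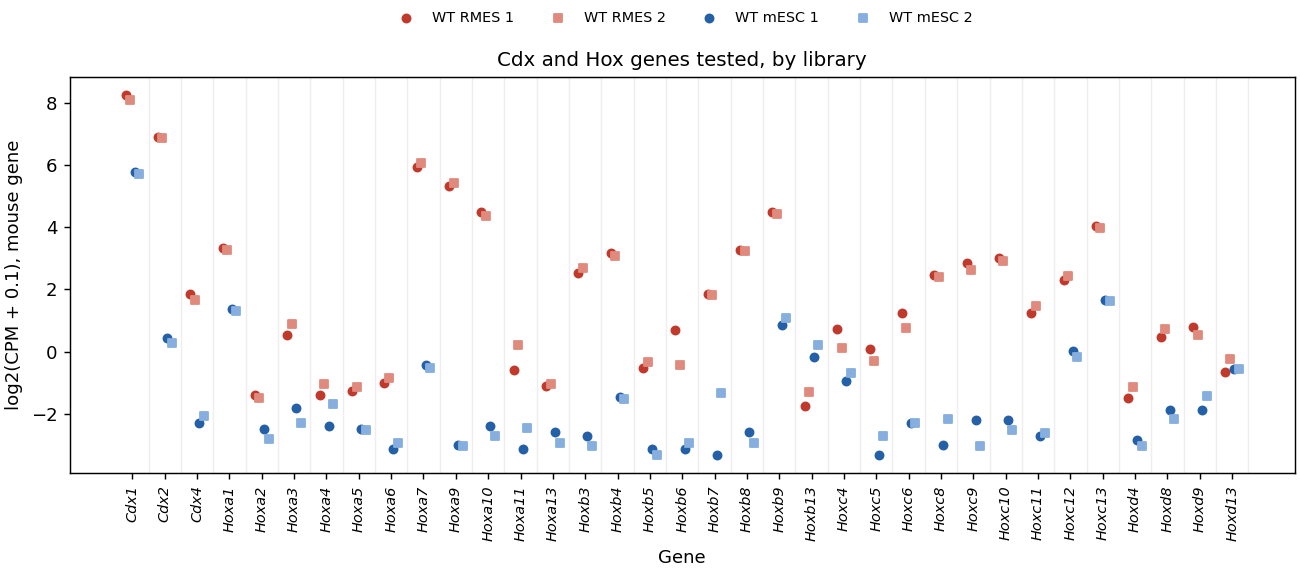
The y axis gives log2(CPM + 0.1) of each Cdx and Hox mouse gene tested, 1 point per library, with WT RMES in reds and WT mESC in blues. The 2 RMES points lie above the 2 mESC points for Cdx1, Cdx2, Cdx4 and the 29 Hox genes called higher, and below them for Hoxb13.

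WNT target genes, which are read-outs of beta-catenin activity, were called higher in 8 of 13 tested members and lower in none (median 1.32). That is 61.5% higher, beside 13.6% of all genes tested. Sp5, a direct target that feeds back on the pathway, had 6737 and 6903 counts against 750 and 964 (4.21 ± 0.05 SE, adjusted p = 2.8e-10). Axin2, a negative feedback regulator, had 8351 and 8610 counts against 4409 and 5431 (2.00 ± 0.04 SE, adjusted p = 2.7e-09), although the mESC libraries were the deeper ones. T (Brachyury), a primitive streak factor, had 440 and 516 against 142 and 196 (2.72 ± 0.11 SE, adjusted p = 7.0e-08). Lef1, Nkd1, Notum, Ccnd1 and Cdx1 were the other members called, of which Notum (0.26) and Ccnd1 (0.82) fell under the fold threshold when rat counts were added. Tcf7 (0.75), Znrf3 (0.88) and Rnf43 (0.90) lay under the fold threshold on the log2 scale. Because Cdx1 and T are also streak markers, the lists overlap.

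Of the 10 primitive streak and mesoderm markers tested, 5 were called higher (T, Evx1, Kdr, Cdx1, Cdx4) and 1 lower (Tbx6). The Tbx6 call (-2.12, adjusted p = 0.0176) was lost without WT RMES replicate 2 (adjusted p = 0.137) and without WT mESC replicate 2 (adjusted p = 0.106). Evx1, a posterior streak homeobox factor, had 315 and 352 counts against 80 and 79 (3.27 ± 0.15 SE). Kdr, the VEGF receptor of early mesoderm, had 75 and 96 against 12 and 14 (3.91 ± 0.27 SE). The markers that define nascent mesoderm were near 0: Mesp1 had no count in either RMES library, Lhx1 none and Mixl1 4 and 9. The list summed to 333 and 303 CPM in the RMES libraries and 59.9 and 57.7 CPM in the mESC libraries, most of it from Cdx1. Of 18 trophoblast markers, 5 of 16 tested were called higher (Cdx2, Gata2, Tfap2a, Ets2, Bmp4) and 4 lower (Krt7, Krt8, Krt18, Esx1). These are 31.2% and 25%, beside 13.6% and 19.6% of all genes tested. Gata2, a zinc-finger factor of trophoblast and blood, had 1924 and 1794 counts against 151 and 159 (4.80 ± 0.11 SE, adjusted p = 3.7e-09). Elf5 and Hand1, which define trophoblast stem cells and giant cells, had at most 8 counts in any of the 4 libraries, and Gata3, with 36 and 58 counts against 113 and 142, was not called and lay at 0.02 without WT RMES replicate 1. The rat genes of Krt8 (39.8 and 36.6 CPM) and Krt18 (225 and 214 CPM) stood above the mouse genes (6.04 and 1.21 CPM), and with the counts of both species summed Krt8 (0.61) and Krt18 (3.46) were higher in RMES.

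**Figure D3:**
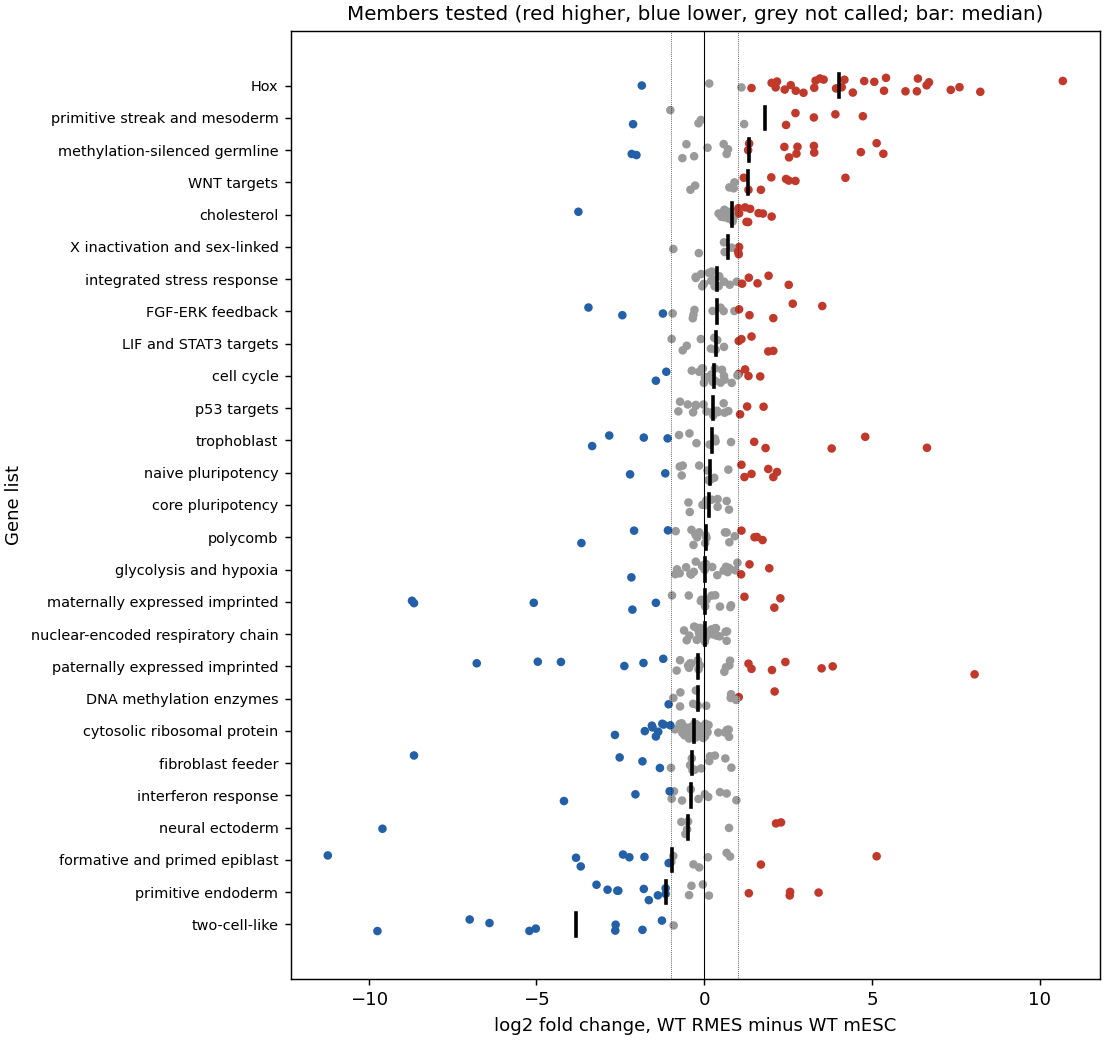
Each point is the log2 fold change (x axis, WT RMES minus WT mESC) of a tested member of the gene list named on the y axis, red when called higher, blue when called lower and grey when not called, with a bar at the list median. The Hox list has the highest median, 4.02, and the 2-cell-like list the lowest, -3.83.

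Core pluripotency genes differed by less than the fold threshold. None of the 10 core members was called by edgeR or by DESeq2, and at any fold change 5 were higher and 2 lower by edgeR. With rat counts added 1 was called higher. Pou5f1 (Oct4), the central factor of the network, had 62450 and 69369 counts against 103673 and 128699 (0.40 ± 0.02 SE), and Sox2 had 14825 and 16694 against 32901 and 43012 (-0.05 ± 0.03 SE, adjusted p = 0.186; 0.18 with rat counts added). Among 18 naive pluripotency genes, 6 were called higher (33.3%) and 2 lower (11.1%), beside 13.6% and 19.6% of all genes tested. Tfcp2l1, a factor downstream of LIF, rose by 2.06 ± 0.03 (SE, log2), from 30946 and 40106 counts to 60325 and 66811 in libraries of less depth. Klf5 (2.17), Klf4 (1.91), Gbx2 (1.41), Nr5a2 (1.20) and Tbx3 (1.11) were the other members called higher. Nr5a2 was at 0.32 with rat counts added, and Tbx3 at 0.93 with upper-quartile factors. Dppa3 (Stella), a maternal and germ cell protein that protects against methylation, fell to 328 and 319 counts from 3091 and 3881 (-2.21 ± 0.07 SE), while its rat gene stood at 451 and 464 CPM. With mouse and rat counts summed in the RMES libraries, Dppa3 was higher instead (2.32). Fgf4 was the other member called lower (-1.16). The LIF and STAT3 list, which shares Klf4, Tfcp2l1 and Gbx2, had 5 of 14 members (35.7%) called higher (3 with upper-quartile factors) and none lower. Socs3, its feedback inhibitor, was at 0.39.

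Formative and primed epiblast genes went mostly the other way, with 7 of 16 called lower and 2 higher (median -0.95). These are 43.8% and 12.5%, beside 19.6% and 13.6% of all genes tested. Otx2, the homeobox factor that drives the exit from naive pluripotency, had no count in either RMES library and 390 and 439 counts in the mESC libraries. Against a floor of 3 counts over the group it was at least 119-fold lower (adjusted p = 5.0e-07), and its rat gene also had 0 and 0 counts. Sox4 fell to 71 and 94 counts from 2131 and 2785 (-3.68 ± 0.09 SE), and Sall2, Zic2, Grhl2, Nodal and Dnmt3a were called lower as well. With rat counts added, Zic2 was at 0.15 on the log2 scale, from -2.23, and the Nodal call was lost (-0.95). Cdh2 (N-cadherin), an adhesion protein of mesoderm and neural cells, was the strongest exception, with 5475 and 6203 counts against 368 and 398 (5.14 ± 0.06 SE, adjusted p = 2.6e-10). Lef1 was the other exception.

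The 2-cell-like state is a rare state of cultures that resembles the early cleavage embryo. Of its 18 genes listed, 10 were tested and 9 called lower (median -3.83), beside 19.6% of all genes tested. Their summed levels were 0.68 and 1.18 CPM in the RMES libraries against 13.9 and 18.8 CPM. At such levels members passed the count filter mainly through the mESC libraries, so the share of tested members carries little weight. With all genes of at least 1 count kept, 10 of 17 members were called lower, beside 3642 of all 19851 genes. Among genes with a rat gene of the same symbol 3 members were called lower, and 1 with rat counts added. Zscan4d had 0 and 2 counts against 279 and 355. Zscan4c had 3 and 5 counts against 205 and 420 (-5.02 ± 0.41 SE). Members of the Zscan4 family are near-identical copies, so the counts of single members are uncertain. Of 17 primitive endoderm genes tested, 9 were called lower (4 with rat counts added) and 4 higher. These are 52.9% and 23.5%, beside 19.6% and 13.6% of all genes tested. Dab2, an adaptor protein, had 8 and 10 counts against 163 and 228 (-3.21 ± 0.26 SE). By contrast, Lama1, a laminin chain, had 7454 and 8506 against 2740 and 3605 (2.55 ± 0.04 SE) and Gata6 149 and 122 against 41 and 67 (2.56 ± 0.24 SE). Fst and Sox17 were the other members called higher, and the Sox17 call (1.33, adjusted p = 0.0353) was lost without WT RMES replicate 1 (adjusted p = 0.32), without WT mESC replicate 1 (adjusted p = 0.125) and by DESeq2 (adjusted p = 0.114). In bulk libraries fewer cells of a state and less RNA per cell cannot be told apart.

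The remaining marker lists were those of fibroblast feeders and neural ectoderm. Of 15 fibroblast feeder genes tested, 4 were called lower (26.7%, beside 19.6% of all genes tested) and none higher. The list summed to 52.5 and 63.4 CPM in the RMES libraries and 67.1 and 68.3 CPM in the mESC libraries. Of 8 neural genes tested, Sox1 (544 and 678 counts against 266 and 313) and Nes (3343 and 3635 against 1654 and 2029) were called higher, and Pax6, with no count against 132 and 134, was at least 38.2-fold lower. These calls are 25% higher and 12.5% lower, beside 13.6% and 19.6% of all genes tested. The neural list summed to 218 and 222 CPM in the RMES libraries and 141 and 140 CPM in the mESC libraries. Pax6 and Otx2 had no mouse or rat count in the RMES libraries.

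Germline genes that DNA methylation keeps silent in somatic cells were called higher in 11 of 20 members and lower in 2 (median 1.33). These are 55% and 10%, beside 13.6% and 19.6% of all genes tested. Dazl, an RNA-binding protein of germ cells, had 15534 and 16605 counts against 816 and 1024 (5.34 ± 0.04 SE, adjusted p = 1.1e-10). Piwil2, a piRNA-binding protein, had 9586 and 9984 against 750 and 1046 (4.67 ± 0.06 SE, adjusted p = 3.9e-10). Ddx4 (2.78), Sycp1 (3.28), Asz1 (5.14), Brdt (3.27), Stk31 (2.53), Slc25a31 (2.75), Tdrkh (2.39), Tex19.1 (1.34) and Rpl10l (1.31) were the other members called higher. Sycp2 and Dpep3, with at most 60 counts in any library, were called lower, and the Dpep3 call was lost without WT RMES replicate 2 (-1.11, adjusted p = 0.179). The rat genes stood far below the mouse genes for Dazl (11.8 and 11.3 CPM beside 433 CPM) and Piwil2 (21.3 and 22.6 beside 264 CPM), and close to it for Tex19.1 (193 and 203 beside 179 CPM). Stra8, the retinoic acid-induced gate to meiosis and no member of the list, went the other way, with 2 and 0 counts in the RMES libraries and 4171 and 5054 in the mESC libraries. That is a ratio of 1990 with a 95% counting interval of 550 to 16400.

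Among the 13 enzymes and readers of DNA methylation, 2 were called higher (15.4%) and 1 lower (7.69%), beside 13.6% and 19.6% of all genes tested. Dnmt3a, a de novo methyltransferase, was the member called lower (-1.06 ± 0.04 SE). Dnmt3b (-0.92 ± 0.03 SE) and Dnmt3l (-0.71 ± 0.03 SE) were lower by less than the fold threshold, with adjusted p = 1.6e-08 and 1.2e-07, and Dnmt3l turned to 0.80 with rat counts added. Tet3 (2.10 ± 0.08 SE), which oxidises methylcytosine, and Uhrf2 (1.03) were called higher, and the maintenance pair Dnmt1 (-0.25) and Uhrf1 (0.06) lay near 0. With upper-quartile factors Uhrf2 (0.85) lost the call and Uhrf1 was at -0.12. Methylation itself was not measured. The germline windows had a median observed to expected CG ratio of 0.738 (19 genes), beside 0.741 for all genes.

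**Figure D4:**
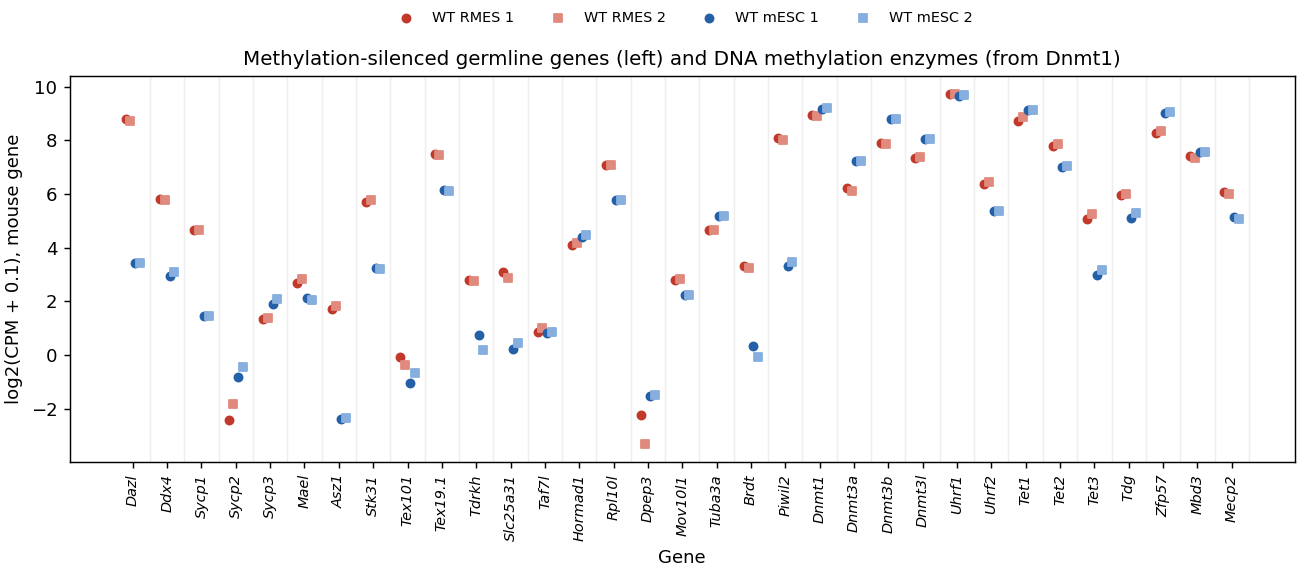
The y axis gives log2(CPM + 0.1) of the mouse gene in each library, WT RMES in reds and WT mESC in blues, for 20 germline genes and, from Dnmt1 on, 13 genes of DNA methylation. Dazl, Asz1 and Piwil2 show the widest gaps between the groups, and Dnmt3a, Dnmt3b and Dnmt3l lie lower in WT RMES.

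Imprinted genes, which are read from 1 parental copy, moved in both directions. Of 26 paternally expressed genes tested, 7 were called higher (26.9%) and 6 lower (23.1%), beside 13.6% and 19.6% of all genes tested. Peg10 had 61487 and 72156 counts against 12007 and 15506 (3.50 ± 0.04 SE), and Plagl1, a zinc-finger regulator of growth, 17045 and 19001 against 2556 and 3329 (3.83 ± 0.04 SE). Rasgrf1 had 224 and 277 counts against 3 and 1 (8.06 ± 0.32 SE), and Sgce, Ndn, Kcnq1ot1 and Impact were the other members called higher; the Impact call was lost with rat counts added (0.77). Sfmbt2, a polycomb-related gene of the placenta, fell to 16 and 26 counts from 4823 and 5911 (-6.78 ± 0.09 SE), with its rat gene at 61.9 and 56.8 CPM, close to the mouse level of 62.2 CPM in mESC. Nnat (15 and 28 counts against 1385 and 1723, rat gene at 44.2 and 42.5 CPM) and Slc38a4 (287 and 241 against 10247 and 13620, rat gene at 27.5 and 28.3 CPM) showed the same arrangement of a low mouse and a higher rat level, and Nnat was at 0.07 with rat counts added. Of 19 maternally expressed genes tested, 3 were called higher (15.8%) and 5 lower (26.3%). H19, a noncoding RNA, fell to 478 and 348 counts from 3775 and 4751 (-2.14 ± 0.14 SE), Phlda2 to 8 and 4 from 415 and 544 (-5.08 ± 0.26 SE), and Igf2r rose to 9431 and 10380 from 8922 and 11055 in the deeper mESC libraries (1.20 ± 0.03 SE).

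Cholesterol synthesis and uptake genes were called higher in 9 of 22 members and lower in 1 (median 0.83). At any fold change 21 were higher and 1 lower by edgeR. Insig1 (1.75), Cyp51 (1.62), Sc5d (2.01) and Hmgcs1 (1.37) were among those called. FGF-ERK feedback genes split into 5 higher (3 with rat counts added) and 3 lower of 16: Spry4, an inhibitor of the pathway, had 5135 and 5968 counts against 1763 and 2379 (2.64 ± 0.05 SE), and Egr1, an immediate early gene, 19 and 8 against 263 and 437 (-3.45 ± 0.34 SE). The integrated stress list had 5 of 20 higher and none lower, and the p53 list 3 of 19 higher and none lower. In the cell cycle list Cdk6 (1.67), Ccnd1 (1.32), Ccnd3 (1.03) and Cdkn2b (1.22) were higher and Ccne1 (-1.13) and Cdkn1c (-1.44) lower. With rat counts added, Cdk6 (0.73), Ccnd1 (0.82), Ccnd3 (0.57), Cdkn2b (0.67), Ccne1 (-0.84) and Cdkn1c (-0.18) were no longer called. Polycomb genes were called higher in 4 and lower in 3 of 20 members, glycolysis and hypoxia genes in 3 and 1 of 24, and interferon genes in 0 and 3 of 13. Of all genes tested, 13.6% were called higher and 19.6% lower. Beside these shares, the p53 list had 15.8% higher, the glycolysis and hypoxia list 12.5% higher and the interferon list 23.1% lower. The polycomb list had 20% higher and 15% lower, the cell cycle list 16.7% and 8.33%, and the FGF-ERK list 31.2% and 18.8%. The integrated stress list had 25% higher. None of 30 respiratory chain genes was called by edgeR or by DESeq2, and at any fold change 11 were higher and 12 lower by edgeR. Of 77 ribosomal protein genes 9 were called lower (11.7%) and none higher (median -0.30). At any fold change 60 of them were lower and 6 higher by edgeR. Ribosomal protein genes share near-identical copies elsewhere in the genome, so that their counts are uncertain.

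Genes were also named by size of change. Among called genes that averaged 200 counts or more, the 12 largest increases were Hoxa9, the X-linked predicted gene Gm773, Hoxa10, Khdc1a, Obox6, Krt23, Hkdc1, Apoa2, Khdc1c, Xlr, Hoxa7 and Btla. Obox6, an oocyte homeobox gene, had 1068 and 1194 counts against 9 and 9 (8.16 ± 0.11 SE, adjusted p = 3.8e-10). Krt23, a keratin, had 1260 and 1380 against 5 and 17 (8.10 ± 0.17 SE), with a rat level of only 0.17 and 0.28 CPM. Hkdc1, a hexokinase relative, had 1008 and 1131 against 10 and 8 (8.08 ± 0.13 SE). Among called genes of at least 50 CPM in a group, Emp2, Lad1, AA467197, Trpm1 and Gm364 joined Cdx2, Dazl, Cdh2, Gata2 and Piwil2. Trpm1, a cation channel of melanocytes and retina, had 7395 and 8093 counts against 707 and 869 (4.51 ± 0.04 SE, adjusted p = 1.4e-10).

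At the other end, the 12 largest decreases among those averaging 200 counts or more were Otx2, Stra8, Col9a2, AY036118, Aass, Car13, Sult6b1, Fgf1 and 4 predicted genes. Col9a2, a cartilage collagen, had 1 and 2 counts against 1236 and 1583, a ratio of 405 with a 95% counting interval of 138 to 1960, while its rat gene stood at 15.6 and 14.2 CPM. Aass, an enzyme of lysine breakdown, had 4 and 3 counts against 2343 and 2767 (-8.27 ± 0.14 SE) and a rat level of 0.577 and 0.559 CPM. Both alleles of Aass were low, and only the mouse allele of Col9a2 was. At 50 CPM or more in a group the decreases also held Hmga1b, Pcolce, Ttn, Ankrd31 and Eno1b. Hmga1b and Eno1b are intronless copies of other genes, and Gm6793 (48648 and 31 counts in the 2 mESC libraries) and Gm10260 (24075 and 5656) differed widely between the mESC libraries, as did Gapdh (5827 and 286965), so that counts of copied genes are uncertain here. Without WT mESC replicate 1 the log2 fold change of Gm6793 turned from -6.99 to 2.91 and that of Gapdh from 0.58 to -0.40, while Gapdh was at 4.92 without WT mESC replicate 2.

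Chromosomes X and 16 stood apart from the rest. The 582 X-linked genes tested had a median log2 fold change of 0.98, and 48.5% were called higher and 10.1% lower. For the 488 genes of chromosome 16 the median was 0.66, with 31.4% called higher and 11.1% lower. Over all 16680 genes with a position the shares were 13.6% and 19.6%. Counts were scaled within the mouse genes of each library, so these are levels relative to other mouse genes and not levels per cell. The medians of the other autosomes lay between -0.28 and 0.20. The shift ran along the whole of both chromosomes: in 4 equal groups of genes by position, medians lay between 0.52 and 0.82 on chromosome 16 and between 0.84 and 1.26 on the X. Among protein-coding genes over 10 CPM in mESC, 86.9% of 283 chromosome 16 genes and 87.6% of 274 X-linked genes lay above 0, beside 51.9% of 8017 genes of the other autosomes. Each RMES library gave the shift against each mESC library, with chromosome 16 medians of 0.57 to 0.61 and X medians of 0.78 to 0.80 on log2(CPM + 0.5). Of the called genes named here, Btla, Emp2 and Ets2 and the FGF-ERK gene Etv5 (1.04) lie on chromosome 16, all called higher. On the X lie Cdx4, Gm773, Gm364 and Xlr, the polycomb gene Bcor (1.57) and the cholesterol genes Ebp (1.26) and Nsdhl (1.02), called higher, and Esx1, called lower (-3.34). Etv5 (0.61), Bcor (0.73) and Ebp (0.76) were no longer called with rat counts added. Xist, the RNA that coats an inactive X, had 136 and 137 counts against 299 and 412 and was not called (-0.16 ± 0.13 SE).

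**Figure D5:**
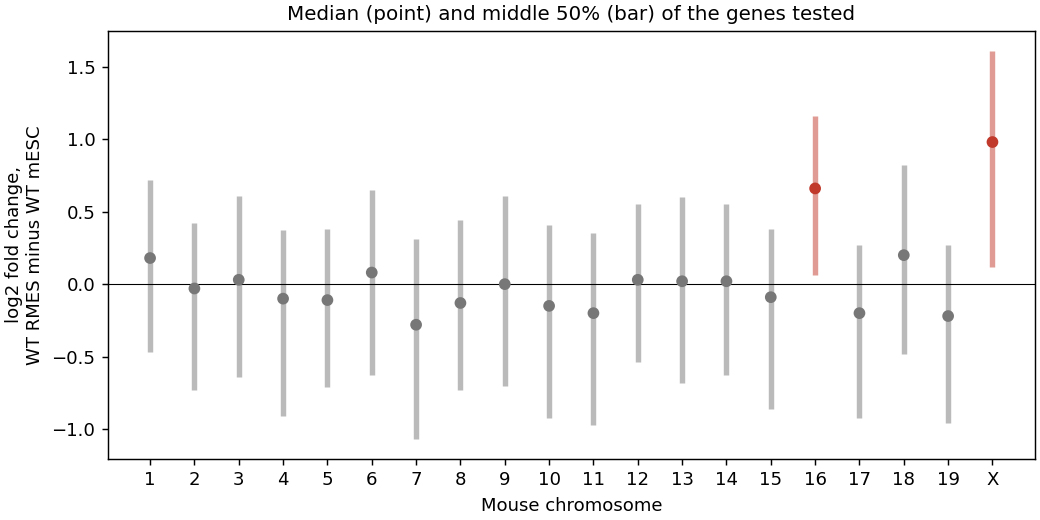
Points give the median log2 fold change (y axis, WT RMES minus WT mESC) of the tested genes of each mouse chromosome (x axis), and bars the middle 50% of genes. Chromosomes 16 (0.66) and X (0.98), in red, lie above the others, which span -0.28 to 0.20.

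Features that the comparison did not use were set beside the calls without a test. Promoter windows of the 2194 genes called lower with a window had a median observed to expected CG ratio of 0.536, those of the 1564 called higher 0.675 and those of the 8194 not called 0.784. A WT mESC ATAC peak lay within 1000 bp of the start in 82.6%, 87.5% and 95.1% of them. The share called lower was 35.9% of 764 antisense genes, 35.8% of 653 long intergenic noncoding RNAs, 33.1% of 281 processed transcripts and 17.9% of 14275 protein-coding genes, which was not tested. Among 83 sense intronic genes 9.64% were called lower and 28.9% higher, and among 528 genes of the class TEC (transcripts to be experimentally checked) 15.5% and 23.3%. Genes with no rat gene of the same symbol had a median of -0.22 and those with one 0.01. For genes called higher, the rat level was below the mouse level in the same libraries (median log2 difference -0.88 over 1634 genes), while it was 0.12 for 2186 genes called lower and -0.08 for 8877 not called; the mouse level in those libraries enters both the call and the difference.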

How the data were processed

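Members and gene lists were chosen with earlier results of these data known. RNA-seq of 2 WT RMES and 2 WT mESC libraries was used, as raw counts per gene. Per the study's methods, the authors aligned reads with STAR 2.7.0d to mm10 (GRCm38), gave each RMES read to the genome (mm10 or rn6) it differed from least, and counted with featureCounts. The methods state reverse-stranded counting of read pairs for the RNA-seq. The treatment of reads that align equally well to both genomes is not given in the sources used here. The deposited mESC tables came from separate counting runs, with 19919 genes listed for replicate 1 and 34923 for replicate 2. A deposited table of ATAC counts per peak (WT mESC) was used at promoters. Tables of ChIP-seq counts per peak were not used here, and 3 columns of other samples in the tables read were not used.

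Mouse tables were joined on gene symbol, 29 mitochondrial genes were left out, and 19890 genes remained. edgeR 4.0.16 (R 4.3.3) was run with filterByExpr (minimum count 10), TMM factors and the quasi-likelihood test on these 4 libraries only, with Benjamini-Hochberg adjustment over all 16903 genes tested. A gene was called at adjusted p under 0.05 and a log2 fold change over 1 in size. CPM values use the TMM totals, and rat CPM are scaled to rat counts without mitochondrial genes. SE is the size of the log2 fold change divided by the square root of its quasi-likelihood F statistic. In a group near 0 counts it can understate the counting error. It was 0.18 for Stra8, whose 95% counting interval ran from 550 to 16400. In a group at 0 counts, a bound was set at 3 counts over the group; 1 to 3 counts gave a ratio with an exact 95% binomial interval, which covers counting error only. Gene lists (27, with 515 of 565 distinct genes tested) and chromosomes were described by counts and medians without a test. Named genes were list members, genes the study names, and the 12 highest and 12 lowest called log2 fold changes among genes averaging 200 counts or more, and among those of at least 50 CPM in a group. Predicted genes among these were counted and named where they lead. Positions came from GENCODE (16680 of the genes tested matched), promoter windows from RefSeq (11952 matched). Replicate libraries differed by 2.46 (RMES) and 2.98 (mESC) times the sampling variance, so they were treated as separate libraries. This does not show that they came from separate cultures. Tested on simulated data for this comparison (16523 genes), the fit gave adjusted p under 0.05 to 79% of 1.5-fold and 99% of 3-fold changes. It did so for 0.178% of unchanged genes. No fold threshold was applied there, and the changes were set in 200 genes with a mean of 50 counts or more. These rates are therefore not those of the calls made here. A result on an item withheld for evaluation is not reported here. Alternatives were DESeq2 1.42.0, other factors, filters, fold thresholds and library sets, and rat counts added.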

Additional observations from a re-analysis of the deposited data

How the results depend on the processing

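The numbers of genes called higher and lower stayed within 1.5 times 2306 and 3319 under DESeq2, RLE and upper-quartile factors, all genes with a count, the test against a fold change of 2 (glmTreat), the fit of all 24 libraries, genes in both tables and rat counts added. At any fold change they were 6338 and 6621, and over genes with a mean of 50 counts 2172 were called lower. Leaving out each library in turn gave 2167 to 2295 called higher and 3151 to 3278 called lower. Chromosome 16 medians were 0.65 to 0.69 and X medians 0.95 to 0.99 without single libraries. Upper-quartile factors moved the median of all genes from -0.03 to -0.21, and the chromosome 16 and X medians to 0.48 and 0.81. Of the genes called, 1090 of 2306 higher and 1599 of 3319 lower were also among the 2027 and 2362 called with rat counts added, where only genes with the same symbol in both species enter (13015 tested).

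Of 1932 values of 143 named genes under 14 alternatives, 1850 had the main direction and side of the threshold, 51 lost the call, 17 gained it and 14 changed sign. With rat counts added the sign changed for Dppa3 (2.32), Krt18 (3.46), Krt8 (0.61), Dnmt3l (0.80), Sox2 (0.18), Zic2 (0.15), Nnat (0.07) and Hoxd13 (-0.15). With upper-quartile factors it changed for Uhrf1 (-0.12) and Hoxd13 (-0.03). Without single libraries Gm6793 ranged from -8.00 to 2.91 and Gapdh from -0.40 to 4.92 (2.91 and -0.40 without WT mESC replicate 1), Gata3 from -0.52 to 0.02 (without WT RMES replicate 1) and Hoxd13 from -0.10 (without WT RMES replicate 2) to 0.37. Over genes with a mean of 50 counts, 14 Hox genes were called higher. No paired analysis was possible because the labels number only 1 of the 2 WT mESC libraries. The cause of each change was not tested. Depth limits the genes at 0 to 3 counts in the RMES libraries, which were the shallower ones.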

Other observations

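On the scale shared by all 24 libraries, and against the mean of the WT mESC libraries, the chromosome 16 median was 0.51 and 0.54 in the libraries labelled WT RMES and -0.18 in both the mCDX2 OE RMES and the rCDX2 OE RMES library. The X median was 0.69 and 0.71 in the former and 1.07 and 1.03 in the latter. The difference was not tested, since each overexpressing RMES group is 1 library.

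Mitochondrial genes, which were left out of the comparison, held 2.32% and 2.65% of mouse counts in the libraries labelled WT RMES and 1.73% and 1.63% in those labelled WT mESC. In the mCDX2 OE RMES and rCDX2 OE RMES libraries they held 0.0314% and 0.0259%.

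On the same shared scale H19 stood at 6130 CPM in the mCDX2 OE RMES and 7060 CPM in the rCDX2 OE RMES library and between 803 and 6450 CPM in the 18 Cdx2-overexpressing mESC libraries, beside 15 and 9.84 CPM in the libraries labelled WT RMES and 56 and 56.9 CPM in those labelled WT mESC.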
